A study of Rattus norvegicus with 18 samples.

Results

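The genes described here code for the metalloproteases that cut the extracellular matrix and the cell surface, and for the inhibitors that hold them in check: the matrix metalloproteases (MMPs), the ADAMTS and ADAMTS-like proteins, the ADAMs, and the tissue inhibitors of metalloproteases (TIMPs). They were chosen by symbol alone, as all symbols that start with Mmp or Timp and a digit, with Adamts, or with Adam and a digit. The rule found 42 of the 13188 genes in the table: 11 MMPs, 4 TIMPs, 12 ADAMTS proteases, 3 ADAMTS-like genes and 12 ADAMs. RNA-seq was done in 18 libraries of HO15.19 cells, a line of rat Rat1 fibroblasts that lacks functional endogenous myc (myc-/-), in 6 groups of 3 libraries. Untransfected cells were sequenced without MYC (Sed, myc-/-) and with human MYC (SedMYC, myc-/- + MYC), and both lines were also transfected with the control siRNA siCtrl. The remaining groups are myc-/- + MYC cells in which the transcript of Ahr, the gene of the aryl hydrocarbon receptor, was targeted by siAHR-2 in one and by siAHR-5 in the other. By the labels, siRNA was used at 40 nM and cells were harvested 48 h later, and untransfected groups carry no time. Every group is the same myc-/- line, and human MYC was expressed from the retroviral vector pBabe, so that its level does not depend on the promoter of the endogenous gene. The labels do not say whether the 3 libraries of a group came from separate cultures, and the p-values therefore measure only the spread between these libraries.

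MMPs are secreted or membrane-bound zinc enzymes that are made as inactive precursors and together cut nearly every protein of the matrix. TIMPs bind their active sites and block them, and Timp3 also blocks several ADAMs and ADAMTS enzymes. ADAMTS proteases trim procollagens and cleave proteoglycans such as versican and aggrecan, ADAMTS-like proteins share their outer domains but have no protease domain, and ADAMs such as ADAM10 and ADAM17 shed growth factors and receptors from the cell surface. Fibroblasts are a main source of many of these in connective tissue.

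The deposited log2 values fall into 2 sets of libraries on different scales, and groups were compared only within a set. Set A holds 6 libraries, those of transfected myc-/- (siCtrl) and of untransfected myc-/- + MYC. Set B holds the other 12, those of untransfected myc-/- and of transfected myc-/- + MYC with siCtrl or with either AHR siRNA. Within each set the transfection label changes together with MYC, in opposite senses: by the sample titles, the MYC-expressing group is the untransfected one in set A and the transfected one in set B. MYC and transfection therefore cannot be told apart within either set. The transfection of the groups in set A rests on the sample titles, since their columns in the table are headed only control and Myc. No level is corrected for transcript length, so values are compared between groups for 1 gene and not between genes. Rat Myc, checked as the deleted gene, still gave signal in every library, from 8.01 to 10.94, and was lower in the MYC-expressing group of both sets. Among the fibroblast markers Vim had group means of 18.34 to 19.63 and Fn1 of 17.70 to 20.41, while Col1a2 stayed between 3.64 and 4.08. Group means of the epithelial markers ran from 1.24 (Epcam) to 8.92 (Krt8), and those of the leukocyte markers from 1.99 (Itgam) to 9.34 (Cd3e), with Ptprc between 2.84 and 4.62.

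With MYC, the genes of this protease network fell more often than they rose. A gene passed when it differed at least 1.5-fold off the log scale and its limma adjusted p did not exceed 0.01; log2 fold changes (log2FC) are given as MYC-expressing minus myc-/-. In set A, 21 of the 42 genes passed, 6 higher and 15 lower, where 26.8% of all genes passed (12.5% higher and 14.3% lower). In set B, 22 of the 42 passed, 4 higher and 18 lower, where 25.5% of all genes passed (10.8% higher and 14.7% lower). After quantile normalization the 42 genes split into 4 higher and 17 lower in set B, and all genes into 1796 higher and 1660 lower, against 1425 and 1936 on the deposited scale. In set A the same step gave 6 higher and 14 lower, and for all genes 1799 higher and 1684 lower, against 1653 and 1884. By adjusted p alone, under 0.05 without a fold cutoff, 34 of the 42 genes passed in set A, where 76.2% of all genes did, and 31 in set B, where 64.7% did. The 3 libraries of a group did not overlap with those of the other for 34 genes in set A (all genes, 78.8%) and for 32 in set B (all genes, 70.5%), shares close to those of all genes. The median log2FC of the 42 genes was −0.36 in set A and −0.31 in set B, and that of all genes was 0.00 in both. The values are averages over a culture, so fewer expressing cells and less RNA per cell cannot be told apart.

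The MYC comparisons of the 2 sets share no library. Passing lower in both were 12 genes: Mmp2, Mmp3, Mmp9, Mmp10, Mmp14, Mmp19, Timp1, Timp3, Adamts1, Adamts2, Adamts5 and Adam19, where 8.91% of all genes did so. Passing higher in both were 4 genes, Mmp15, Adamts12, Adam15 and Adam32, where 6.87% of all genes did so. Adamtsl3 passed in opposite directions, as did 0.341% of all genes. At least 1 of the sets gave a call for 26 of the 42 genes, where it did for 36.2% of all genes, and 16 genes passed in neither set. The difference between the 2 effects, set B minus set A, passed for 17 of the 42 genes, 7 higher and 10 lower, where 16.5% of all genes passed (6.79% higher and 9.67% lower). By adjusted p alone 27 of the 42 differed, where 54.9% of all genes did.

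**Figure D1:**
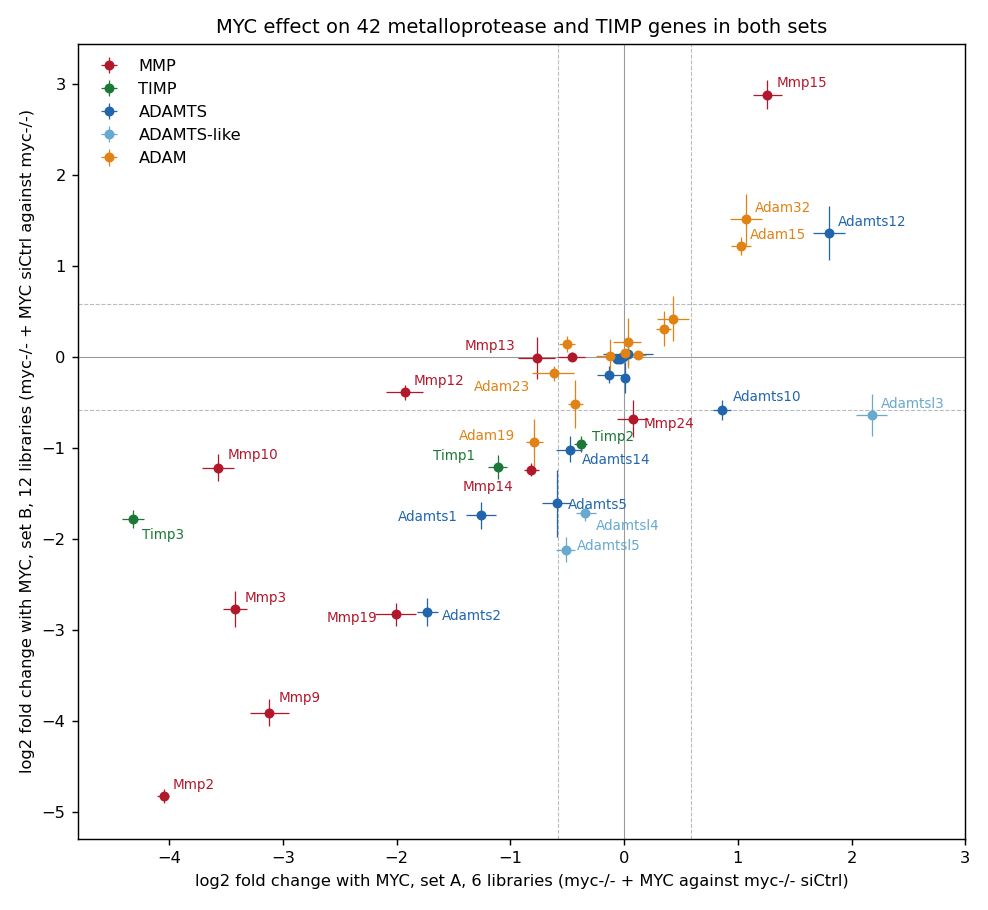
Log2 fold change with MYC of the 42 genes in set A (horizontal axis) against that in set B (vertical axis), coloured by family; bars are 95% confidence intervals and dashed lines mark a 1.5-fold change in either direction. Mmp2 and Mmp9 lie lowest on the vertical axis, Mmp15 lies highest, and Adamtsl3 is to the right of and below zero.

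The gelatinases Mmp2 and Mmp9, which digest denatured collagen and the collagen of basement membranes, fell with MYC in both sets. Mmp2 read 16.74, 16.78 and 16.77 in the 3 myc-/- siCtrl libraries and 12.72, 12.71 and 12.70 in the myc-/- + MYC libraries. In set B it read 15.24 in each of the 3 myc-/- libraries and 10.37, 10.45 and 10.41 in the myc-/- + MYC siCtrl libraries. The groups lie far apart in both sets, and libraries of a group differ by at most 0.08. The log2FC was −4.05 (SE 0.0262, adjusted p = 6.26e-15) in set A and −4.83 (SE 0.0303, adjusted p = 4.30e-08) in set B, which off the log scale is 16.6-fold and 28.4-fold lower. Mmp9 went from 14.48, 14.56 and 14.48 to 11.61, 11.25 and 11.30 in set A. Its level in set B went from 12.18, 12.22 and 12.18 to 8.35, 8.34 and 8.18. No library of a MYC-expressing group reached the level of a myc-/- library, and the log2FC was −3.12 (SE 0.0763, adjusted p = 2.25e-11) and −3.91 (SE 0.0611, adjusted p = 2.18e-07).

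The stromelysins Mmp3 and Mmp10, which cut proteoglycans and fibronectin and activate other MMPs, also fell in both sets. Mmp3 read 14.36, 14.29 and 14.19 without MYC and 10.92, 10.82 and 10.83 with MYC in set A. Its values in set B were 9.44, 9.64 and 9.38 without and 6.77, 6.68 and 6.71 with MYC. Its log2FC was −3.42 (SE 0.0473, adjusted p = 3.75e-13) and −2.77 (SE 0.0811, adjusted p = 1.84e-06), the smaller fall being in set B. The lowest value of Mmp3 in set B was 6.66, close to its values there with MYC. Mmp10 read 13.03, 12.89 and 12.76 without and 9.28, 9.31 and 9.38 with MYC in set A, a log2FC of −3.57 (SE 0.0633, adjusted p = 2.06e-12). The libraries of set B read 7.22, 7.25 and 7.42 without and 6.07, 6.07 and 6.09 with MYC, a log2FC of −1.22 (SE 0.0616, adjusted p = 1.40e-05). All 3 myc-/- + MYC siCtrl libraries lay within 0.05 of the lowest value of Mmp10 in that set, and how the deposited scale treats changes near a gene's lowest value is not known.

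Mmp3 and Mmp10 belong to a row of MMP genes on rat chromosome 8. In the RefSeq annotation of GRCr8 the order is Mmp13, Mmp12, Mmp1b, Mmp3, Mmp1, Mmp10, Mmp8 and Mmp27; Mmp1b, Mmp8 and Mmp27 were not analysed here, and reads of Mmp1 and Mmp1b could be split in counting because they are related copies. A RefSeq promoter window, from 250 bases before to 50 bases after the start, was given for 30 of the 42 genes. Mmp2, Mmp9, Mmp14 and Mmp19 had no window. The AP-1 motif TGAGTCA, searched on both strands, was found in 6 of these 30 windows (20%) and in 4.53% of the 27457 windows of all genes. The 6 are Mmp13, Mmp12, Mmp3, Mmp1, Mmp10 and Adam19. As 5 of the 6 belong to this row of neighbouring genes, the share of 20% does not describe the other windows of the 30. The 5 MMP stretches are shown because they carry the motif close to the start and belong to genes that lie side by side and differ in how far they fell. Each line gives the 120 bases before the start on the plus strand of GRCr8, with the motif, or its reverse complement in Mmp13, in capitals. The stretches are chr8:12782709-12782828 (Mmp13), chr8:12866532-12866651 (Mmp12), chr8:12925161-12925280 (Mmp3), chr8:12943333-12943452 (Mmp1) and chr8:12974587-12974706 (Mmp10).
Mmp13: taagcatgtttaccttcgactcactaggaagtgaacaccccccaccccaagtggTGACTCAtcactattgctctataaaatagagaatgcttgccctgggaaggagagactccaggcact
Mmp12: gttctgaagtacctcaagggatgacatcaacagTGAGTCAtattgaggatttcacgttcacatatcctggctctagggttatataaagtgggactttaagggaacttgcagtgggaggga
Mmp3: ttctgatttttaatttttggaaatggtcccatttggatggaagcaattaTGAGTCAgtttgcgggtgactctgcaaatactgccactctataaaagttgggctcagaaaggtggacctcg
Mmp1: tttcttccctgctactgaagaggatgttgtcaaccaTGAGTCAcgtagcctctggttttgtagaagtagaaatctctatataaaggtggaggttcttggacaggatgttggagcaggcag
Mmp10: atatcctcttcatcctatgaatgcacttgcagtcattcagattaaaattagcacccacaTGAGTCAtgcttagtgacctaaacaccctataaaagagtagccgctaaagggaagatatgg
The motif begins 66 bases before the start in Mmp13, 87 in Mmp12, 71 in Mmp3, 84 in Mmp1 and 61 in Mmp10. The E-box CACGTG, the letters to which MYC with its partner MAX binds, was in 2 of the 30 windows (6.67%), those of Adam10 and Mmp12, and in 6.65% of all windows. The AHR response element core GCGTG, which shares the letters CGTG with the E-box, was in 15 of the 30 (50%) and in 31.1% of all windows, and in 1 of the 7 MMP windows. A match describes the letters and is not evidence of binding.

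The other genes of the row fell less, or did not pass. Mmp12, the macrophage elastase, read 8.94, 8.91 and 8.69 without and 6.92, 6.93 and 6.90 with MYC in set A, a log2FC of −1.93 (SE 0.0736, adjusted p = 7.51e-10). Set B gave 5.92, 5.99 and 5.92 without MYC and 5.55, its lowest value, in all 3 libraries with MYC, a log2FC of −0.39 that did not pass. The collagenase Mmp13 read 15.46, 15.29 and 15.11 without and 14.49, 14.61 and 14.45 with MYC in set A. Its log2FC there was −0.77 (SE 0.0724, adjusted p = 1.77e-06), which passed, and −0.55 after quantile normalization, which did not. In set B Mmp13 overlapped between the groups, with 9.47, 9.63 and 9.33 without and 9.52, 9.51 and 9.37 with MYC, a log2FC of −0.01 (95% confidence interval −0.24 to 0.22). The collagenase Mmp1 had a log2FC of −0.46 in set A, below the fold required, and all 12 libraries of the other set lay between 3.45 and 3.50, at its lowest value.

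The membrane-type MMPs, which act at the cell surface, moved in different directions. Mmp14 (MT1-MMP), a collagenase of the cell surface that also activates Mmp2, read 15.59, 15.67 and 15.62 without and 14.81, 14.83 and 14.79 with MYC in set A. In set B it read 15.80, 15.73 and 15.78 without and 14.51, 14.55 and 14.53 with MYC. The log2FC was −0.82 (SE 0.0296, adjusted p = 5.20e-10) and −1.24 (SE 0.0286, adjusted p = 7.71e-07). Mmp15 (MT2-MMP) was the MMP that rose, from 6.10, 6.16 and 6.07 to 7.31, 7.37 and 7.43 in set A. Within set B its level went from 8.07, 7.99 and 7.89 to 10.90, 10.86 and 10.83. The log2FC of Mmp15 was 1.26 (SE 0.0575, adjusted p = 3.37e-09) and 2.88 (SE 0.0632, adjusted p = 6.66e-07), or 2.39-fold and 7.36-fold off the log scale. Mmp24 (MT5-MMP) had a log2FC of 0.08 in set A, where the groups overlapped, and of −0.68 (SE 0.0843, adjusted p = 0.000683) in set B. The Mmp24 gene overlaps Mmp24os, and its call in set B was lost after quantile normalization (−0.57).

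Mmp19, which cuts components of basement membranes, fell from 12.92, 12.95 and 12.90 to 11.11, 10.91 and 10.70 in set A. Its level in set B fell from 11.71, 11.70 and 11.67 to 8.86, 8.93 and 8.79. Its log2FC was −2.01 (SE 0.0803, adjusted p = 1.11e-09) and −2.83 (SE 0.0518, adjusted p = 3.69e-07). Of the 11 MMPs, 8 passed lower in set A (all genes, 14.3%) and 7 in set B (all genes, 14.7%). In both sets 6 passed lower (all genes, 8.91%) and 1 passed higher (all genes, 6.87%). Mmp12 and Mmp13 passed lower in set A alone, Mmp24 passed lower in set B alone and Mmp1 passed in neither. The median log2FC of the MMPs was −1.93 in set A and −1.22 in set B.

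Of the 4 TIMPs, 2 passed in set A (all genes, 26.8%) and 3 in set B (all genes, 25.5%), all lower. Timp3, the TIMP that stays bound to the matrix, read 13.92, 14.05 and 14.08 without and 9.69, 9.71 and 9.68 with MYC in set A. Its values in set B were 8.12, 8.06 and 8.09 without and 6.30, 6.30 and 6.33 with MYC, the latter within 0.05 of its lowest value there. The log2FC was −4.32 (SE 0.0451, adjusted p = 5.97e-14) in set A, the largest fall of the 42 genes in that comparison, and −1.78 (SE 0.0397, adjusted p = 7.19e-07) in set B. Timp1, a soluble inhibitor of most MMPs, went from 14.50, 14.42 and 14.39 to 13.39, 13.29 and 13.29 in set A. Within set B its level went from 13.97, 14.14 and 13.96 to 12.80, 12.81 and 12.83. Its log2FC was alike in the 2 sets, at −1.11 (SE 0.0388, adjusted p = 3.76e-10) and −1.21 (SE 0.0541, adjusted p = 8.78e-06), and the difference of −0.10 had a 95% confidence interval of −0.25 to 0.05. Timp2, which blocks MMPs and also helps Mmp14 to activate Mmp2, went from 16.39, 16.40 and 16.40 to 16.03, 16.01 and 16.00 in set A. Its level in set B went from 16.41, 16.43 and 16.43 to 15.45, 15.52 and 15.41. The groups did not overlap in either set, but only the log2FC of set B, −0.96 (SE 0.0360, adjusted p = 4.53e-06), reached the fold required, that of set A being −0.38 (adjusted p = 9.05e-08). Timp4 stayed at its lowest value, from 2.31 to 2.35 in set A and at 0.39 in all libraries of set B. Each TIMP gene overlaps another gene of the annotation, Timp1 with Syn1, Timp2 with Cep295nl, Timp3 with Syn3 and Timp4 with Syn2. These are overlaps of whole gene spans, and whether any exon is shared was not looked at. The library kit does not keep the strand, so reads of a shared exon, if there is one, could not be told apart.

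**Figure D2:**
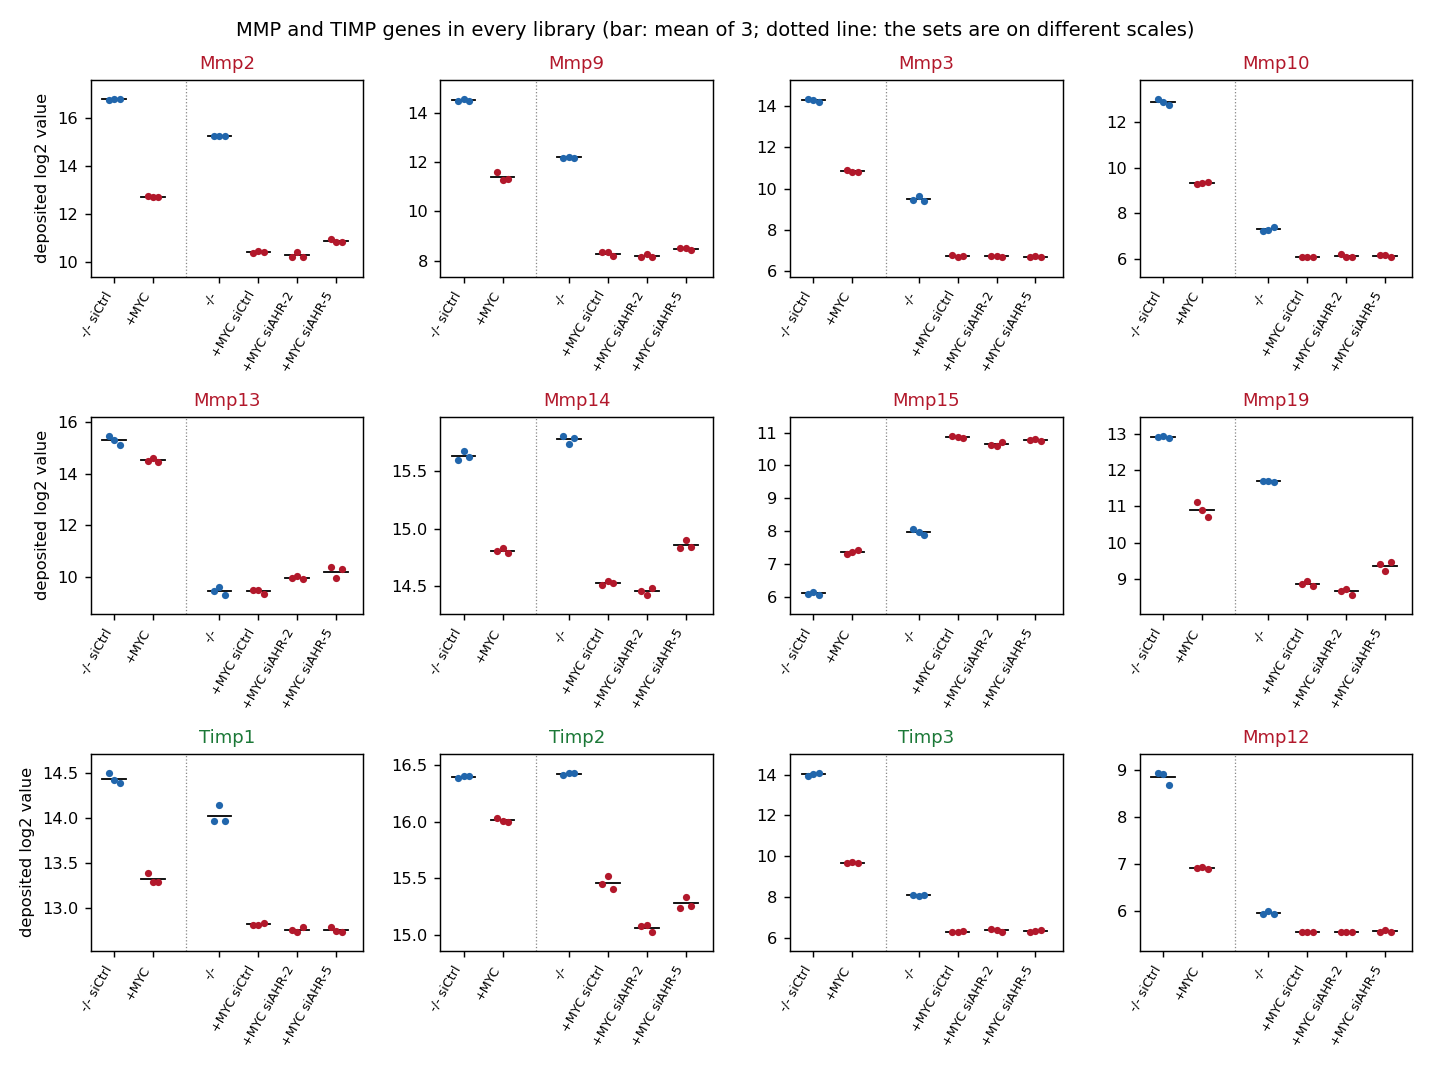
Deposited log2 value in every library (points) and group mean (bars) of 9 MMP and 3 TIMP genes, with myc-/- groups in blue and MYC-expressing groups in red; the dotted line parts set A from set B, which are on different scales. Mmp15 is the gene that is higher in the MYC-expressing groups of both sets, and Mmp13 overlaps between myc-/- and myc-/- + MYC siCtrl.

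Of the ADAMTS proteases that cleave proteoglycans, Adamts1 and Adamts5 fell in both sets. Adamts1 read 14.31, 14.23 and 14.24 without and 12.84, 13.05 and 13.12 with MYC in set A, a log2FC of −1.26 (SE 0.0601, adjusted p = 4.81e-09). The libraries of set B read 15.12, 14.96 and 15.15 without and 13.39, 13.30 and 13.30 with MYC, a log2FC of −1.74 (SE 0.0589, adjusted p = 3.05e-06). Its groups did not overlap in either set. Adamts5, the main aggrecanase of cartilage, read 11.10, 11.18 and 11.05 without and 10.43, 10.51 and 10.62 with MYC in set A. The log2FC of −0.59 (SE 0.0567, adjusted p = 1.98e-06) lay just past the fold required and fell short of it without myc-/- siCtrl replicate 2 (−0.56) or myc-/- + MYC replicate 1 (−0.55). In set B Adamts5 read 13.18, 12.66 and 13.14 without and 11.49, 11.36 and 11.30 with MYC, a log2FC of −1.61 (SE 0.150, adjusted p = 0.000184). The second of these myc-/- libraries stood apart from the others of its group, and without it the log2FC was −1.78. Adamts4, the other aggrecanase, had a log2FC of 0.03 in each set, with 95% confidence intervals of −0.19 to 0.25 and −0.09 to 0.16. Adamts9 and Adamts15 lay at or within 0.4 of their lowest values in every library.

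The procollagen N-proteinases cut the N-terminal propeptide from fibrillar procollagens. Adamts2 read 13.16, 13.23 and 13.18 without and 11.54, 11.41 and 11.43 with MYC in set A. Set B gave 14.16, 14.06 and 14.15 without and 11.31, 11.44 and 11.21 with MYC. Adamts2 fell by 1.73 on the log2 scale (SE 0.0409, adjusted p = 1.82e-11) in set A and by 2.81 (SE 0.0641, adjusted p = 7.59e-07) in set B. Adamts14 read 11.08, 11.20 and 11.01 without and 10.56, 10.63 and 10.64 with MYC in set A, a log2FC of −0.48 that missed the fold required. Its log2FC in set B was −1.02 (SE 0.0588, adjusted p = 2.43e-05). Adamts3 stayed within 0.07 of its lowest value in all 18 libraries.

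Adamts12, which cleaves cartilage oligomeric matrix protein, was the ADAMTS protease that rose in both sets. It read 9.41, 9.23 and 9.16 without and 11.09, 11.08 and 11.02 with MYC in set A. In set B it read 12.18, 11.73 and 12.08 without and 13.43, 13.38 and 13.26 with MYC. The log2FC was 1.80 (SE 0.0643, adjusted p = 4.53e-10) and 1.36 (SE 0.122, adjusted p = 0.000160), and 1.22 in set B without the low second myc-/- library. Adamts10, which is tied to the fibrillin microfibrils, passed in set A alone. It rose there from 12.54, 12.55 and 12.49 to 13.43, 13.41 and 13.32, a log2FC of 0.86 (SE 0.0371, adjusted p = 2.08e-09). In set B Adamts10 lay lower with MYC, at 13.11, 13.22 and 13.11 against 13.77, 13.68 and 13.71, and its log2FC of −0.58 (SE 0.0445, adjusted p = 8.30e-05) missed the fold required. Adamts7, the relative of Adamts12 that cleaves the same substrate, had a log2FC of −0.13 and −0.20, and Adamts19 stayed at its lowest value.

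Among the ADAMTS-like genes, Adamtsl3 was the member that passed in opposite directions. It read 7.90, 7.95 and 7.95 without and 10.02, 10.12 and 10.18 with MYC in set A, a log2FC of 2.18 (SE 0.0601, adjusted p = 5.62e-11). Its values in set B were 11.87, 11.62 and 11.90 without and 11.17, 11.25 and 11.06 with MYC, a log2FC of −0.64 (SE 0.0917, adjusted p = 0.00127). The groups did not overlap in either set, and the difference between the 2 log2FC was −2.82 (SE 0.107, adjusted p = 1.86e-11). The gene overlaps Saxo2. Adamtsl4, a protein of the fibrillin microfibrils, read 13.49, 13.53 and 13.46 without and 13.23, 13.16 and 13.08 with MYC in set A, and its log2FC of −0.34 missed the fold required. Within set B its level went from 13.87, 13.82 and 13.84 to 12.08, 12.16 and 12.14, a log2FC of −1.72 (SE 0.0327, adjusted p = 4.17e-07). Adamtsl5 followed the same pattern, with a log2FC of −0.51 in set A and of −2.12 (SE 0.0555, adjusted p = 1.26e-06) in set B.

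Of the 12 ADAMs, 4 passed in set A (all genes, 26.8%) and 3 in set B (all genes, 25.5%), shares near those of all genes. Adam10 and Adam17, the sheddases that release the Notch and EGF-family ectodomains, passed in neither set. Adam10 read 13.86, 13.88 and 13.85 without and 13.46, 13.44 and 13.41 with MYC in set A. The libraries of set B read 15.10, 14.74 and 15.09 without and 14.54, 14.41 and 14.41 with MYC. Its log2FC was −0.43 (adjusted p = 7.16e-08) and −0.52 (adjusted p = 0.00590), and without the low second myc-/- library the latter became −0.64 and passed. Adam17 had a log2FC of −0.50 (adjusted p = 3.56e-08) in set A, from 14.22, 14.19 and 14.17 to 13.66, 13.73 and 13.69. It had a log2FC of 0.14 (adjusted p = 0.0152) in set B, from 14.37, 14.26 and 14.35 to 14.45, 14.48 and 14.48. The groups did not overlap for Adam17 in either set, and the sign differed.

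Adam15 and Adam32 rose in both sets and Adam19 fell in both. Adam15, whose disintegrin domain binds integrins, read 13.09, 13.14 and 13.07 without and 14.22, 14.10 and 14.08 with MYC in set A. Set B gave 12.44, 12.53 and 12.40 without and 13.66, 13.68 and 13.69 with MYC, and its log2FC was 1.03 (SE 0.0407, adjusted p = 9.95e-10) and 1.22 (SE 0.0391, adjusted p = 2.51e-06). Adam32, known chiefly from testis, rose from 7.07, 7.07 and 7.02 to 8.21, 8.03 and 8.15 and, in set B, from 7.34, 7.27 and 7.28 to 8.59, 8.83 and 9.01. The log2FC of Adam32 was 1.07 (SE 0.0634, adjusted p = 3.00e-08) and 1.51 (SE 0.112, adjusted p = 6.97e-05). Adam19, a sheddase of neuregulin, read 13.71, 13.75 and 13.79 without and 12.95, 12.93 and 13.00 with MYC in set A. In set B it read 14.52, 14.17 and 14.49 without and 13.56, 13.38 and 13.41 with MYC. Its log2FC was −0.79 (SE 0.0329, adjusted p = 1.66e-09) and −0.94 (SE 0.105, adjusted p = 0.000414), and −1.06 in set B without the low second myc-/- library. Adam23, which has no protease activity, passed lower in set A alone (log2FC −0.62, adjusted p = 3.42e-05), and did not without myc-/- siCtrl replicate 1 (−0.53). Adam9 and Adam1a lay higher with MYC in both sets without reaching the fold required, at 0.35 and 0.31 for Adam9 and 0.43 and 0.42 for Adam1a. Adam4 and Adam4l1, which are related copies that both overlap Cox16, and Adam5 and Adam11 had log2FC between −0.12 and 0.16.

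**Figure D3:**
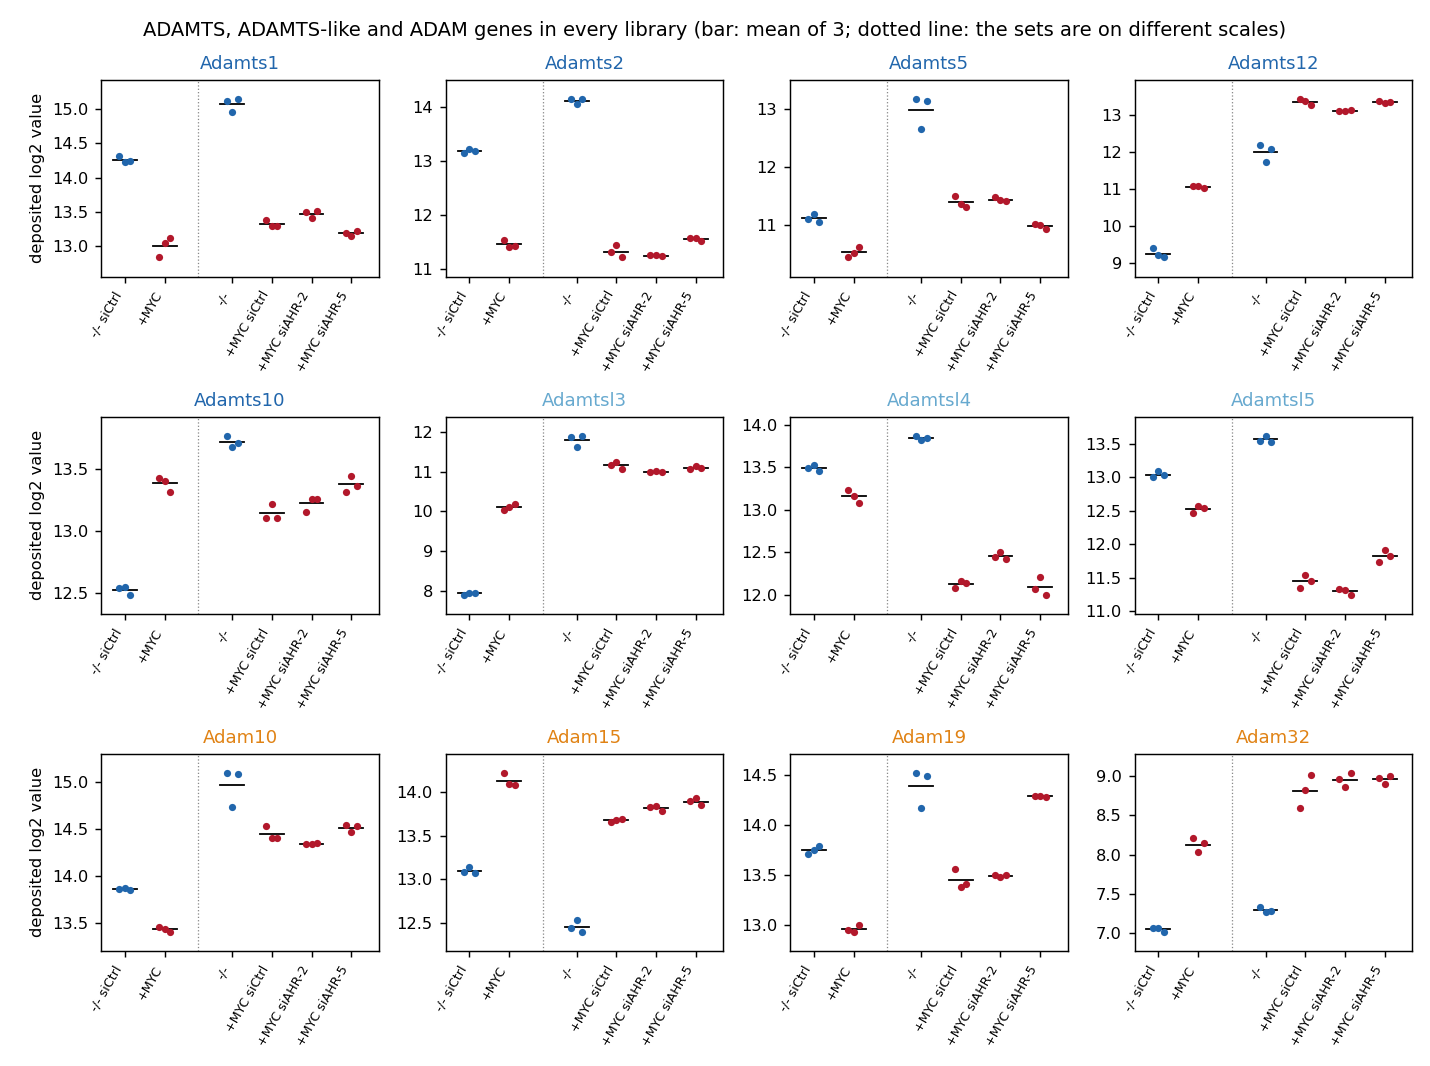
Deposited log2 value in every library (points) and group mean (bars) of 12 ADAMTS, ADAMTS-like and ADAM genes, with myc-/- groups in blue and MYC-expressing groups in red; the dotted line parts the sets, which are on different scales. Adamtsl3 is higher with MYC left of the line and lower right of it, and Adam19 with siAHR-5 lies near 14.28 in all 3 libraries.

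The myofibroblast and smooth muscle markers also fell with MYC, while most endothelial, leukocyte and epithelial markers did not pass. Of the 4 myofibroblast and smooth muscle markers, 3 passed lower with MYC in set A (Acta2, Tagln and Myh11) and all 4 in set B. Of all genes, 14.3% and 14.7% passed lower. Their summed level, on a log2 scale, went from between 14.00 and 14.02 to between 11.40 and 12.05 in set A and from between 17.78 and 17.95 to between 12.46 and 12.57 in set B. Of the 12 fibroblast markers, 6 passed lower and 1 higher in set A (all genes, 14.3% and 12.5%). In set B 8 passed lower (all genes, 14.7%). Col1a1 passed lower in both sets, at −1.73 and −5.95. The part of these changes in the result for the proteases was not tested. None of the 4 endothelial markers passed in either set, where 26.8% and 25.5% of all genes passed. Of the 5 leukocyte markers, Cd3e alone passed, lower in both sets (−2.09 and −1.13), where 8.91% of all genes passed lower in both. Of the 5 epithelial markers measured, Krt8 alone passed, higher in both (1.70 and 1.17), where 6.87% of all genes did so.

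In the siRNA comparisons the target was checked first. Ahr read 13.22 to 13.34 in the 3 siCtrl libraries, 11.97 to 12.03 with siAHR-2 and 11.76 to 11.95 with siAHR-5, log2FC of −1.29 (adjusted p = 0.000237) and −1.39 (adjusted p = 0.000216). With siAHR-2, none of the 42 genes passed in limma, where 0.470% of all genes passed. At an unadjusted p under 0.05 there were 17 of the 42, where 40.4% of all genes were. By adjusted p under 0.05 alone 9 passed (all genes, 29.3%), and for 17 the groups did not overlap (all genes, 43.3%). With siAHR-5, 2 genes passed, both higher, where 2.32% of all genes passed (1.47% higher and 0.849% lower). By adjusted p under 0.05 alone 16 passed (all genes, 39.2%), and for 23 the groups did not overlap (all genes, 50.5%). All genes split into 194 higher and 112 lower with siAHR-5, 127 and 126 after quantile normalization and 140 and 165 after median centring, and into 21 and 41 with siAHR-2, 15 and 53 after median centring. The median log2FC of the 42 genes was 0.00 with siAHR-2 and 0.05 with siAHR-5, that of all genes being 0.00 and 0.01. Both comparisons use the siCtrl libraries that also serve in the MYC comparison of set B, and their values stand side by side without a test of overlap.

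Adam19 and Mmp13 were the genes that passed with siAHR-5. Adam19 read 13.56, 13.38 and 13.41 with siCtrl, 13.50, 13.48 and 13.50 with siAHR-2 and 14.29, 14.29 and 14.28 with siAHR-5. The siAHR-5 libraries lie above those of siCtrl and siAHR-2, and the siAHR-2 libraries lie within the range of siCtrl. The log2FC of Adam19 was 0.83 (SE 0.0479, adjusted p = 0.000357) with siAHR-5 and 0.04 (95% confidence interval −0.08 to 0.16) with siAHR-2. Mmp13 read 9.52, 9.51 and 9.37 with siCtrl, 9.96, 10.03 and 9.95 with siAHR-2 and 10.38, 9.97 and 10.30 with siAHR-5. Both siRNAs lie above siCtrl without overlap, with a log2FC of 0.51 (SE 0.0559, adjusted p = 0.00266) for siAHR-2, below the fold required, and of 0.75 (SE 0.119, adjusted p = 0.00545) for siAHR-5. The call of Mmp13 with siAHR-5 was lost in 5 of the 6 fits that left out a library. Over the 6 fits its log2FC ran from 0.67 to 0.87, past the fold required, and its limma adjusted p reached 0.0259.

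Tested directly, siAHR-5 minus siAHR-2 differed past the cutoffs for 3 genes, all higher with siAHR-5, where 2.18% of all genes passed (1.33% higher and 0.849% lower). By adjusted p under 0.05 alone 19 differed (all genes, 39.1%), and for 20 the 2 siRNA groups did not overlap (all genes, 49.5%). They were Adam19 at 0.79 (SE 0.0130, adjusted p = 3.20e-05), Mmp19 at 0.71 (SE 0.0850, adjusted p = 0.00199) and Mmp2 at 0.60 (SE 0.0681, adjusted p = 0.00162). Mmp2 read 10.37, 10.45 and 10.41 with siCtrl, 10.22, 10.39 and 10.18 with siAHR-2 and 10.94, 10.83 and 10.83 with siAHR-5. Mmp19 read 8.86, 8.93 and 8.79 with siCtrl, 8.67, 8.71 and 8.56 with siAHR-2 and 9.42, 9.20 and 9.45 with siAHR-5. For both genes the siAHR-5 libraries lie above those of siCtrl and siAHR-2. The calls of Mmp2 and Mmp19 were each lost in 3 of the 6 fits that left out a library. Over the 6 fits the log2FC ran from 0.56 to 0.67 for Mmp2 and from 0.66 to 0.79 for Mmp19. The call of Mmp2 was also lost after quantile normalization (0.57) and median centring (0.58). For Mmp13 the difference between the siRNAs was 0.24 with a 95% confidence interval of −0.04 to 0.52.

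Mmp14, some ADAMTS and ADAMTS-like genes and the TIMPs did not reach the fold required with either siRNA or in the direct test. They are examples, and other genes also differed between the siRNAs at an adjusted p under 0.05. The values of these examples stand side by side. Mmp14 had a log2FC of −0.07 with siAHR-2 and of 0.33 (adjusted p = 0.000652) with siAHR-5, and the difference between the siRNAs was 0.40 (adjusted p = 0.000325). Adamts4 had 0.03 with siAHR-2 and 0.58 (adjusted p = 0.000695) with siAHR-5, just short of the fold required, a difference of 0.55 (adjusted p = 0.00159). Adamts5 had 0.04 and −0.41 (adjusted p = 0.00385), Adamts14 had −0.37 (adjusted p = 0.00617) and 0.09, and Adamtsl4 had 0.33 (adjusted p = 0.00191) and −0.03. The differences between the siRNAs were −0.45 for Adamts5 (adjusted p = 0.000530), 0.47 for Adamts14 (adjusted p = 0.00144) and −0.36 for Adamtsl4 (adjusted p = 0.00545). Adamtsl5 had −0.15 with siAHR-2 and 0.38 (limma adjusted p = 0.00862) with siAHR-5, a difference of 0.53 (limma adjusted p = 0.00120). Among the TIMPs, Timp2 read 15.45, 15.52 and 15.41 with siCtrl, 15.08, 15.09 and 15.03 with siAHR-2 and 15.24, 15.34 and 15.26 with siAHR-5. Timp2 was thus below siCtrl with both siRNAs, by a log2FC of −0.40 (adjusted p = 0.00133) and −0.18 (adjusted p = 0.0173). Timp1 had −0.06 with each siRNA, and Timp3 had 0.06 and 0.03, with values near its lowest in all 9 MYC-expressing libraries of the set.

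**Figure D4:**
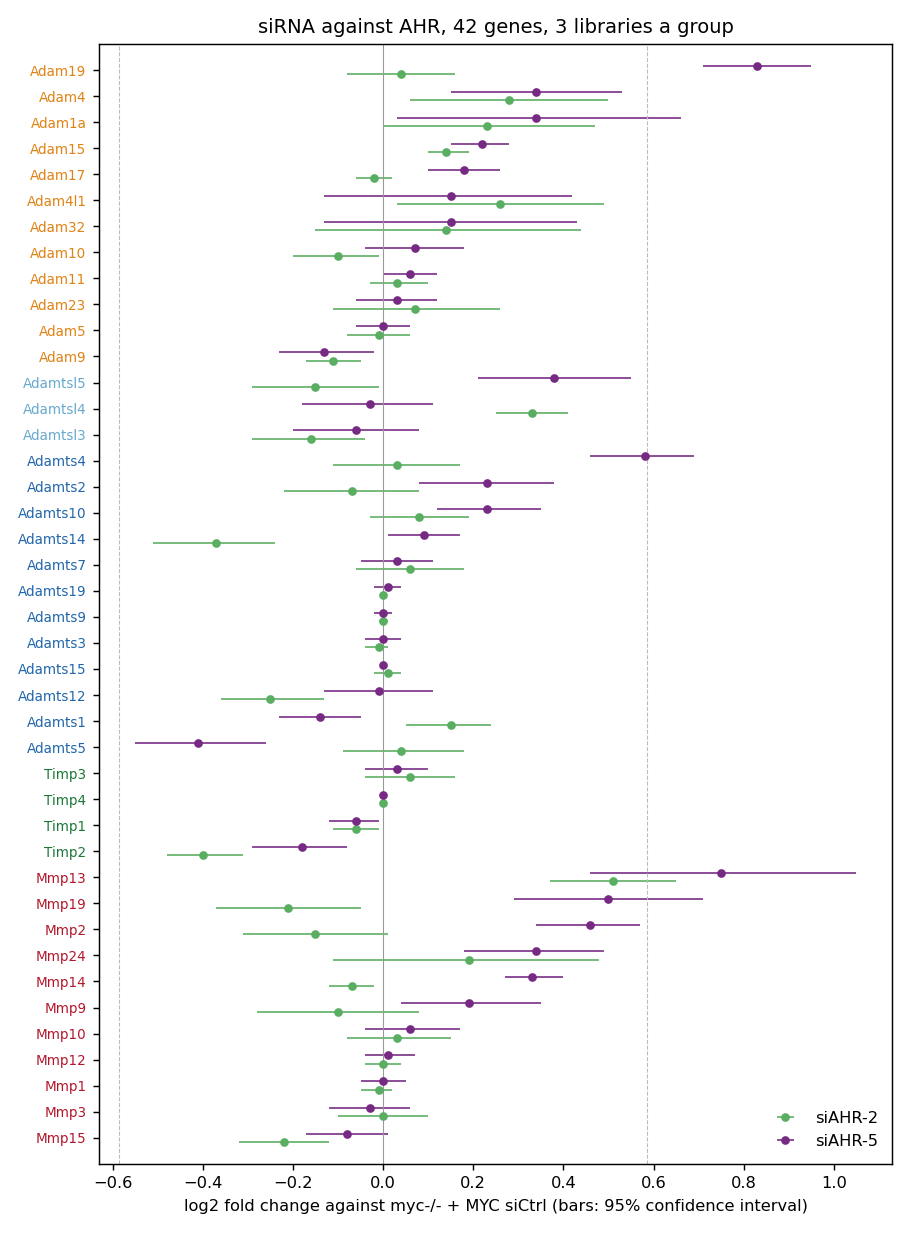
Log2 fold change of the 42 genes with siAHR-2 (green) and siAHR-5 (purple) against myc-/- + MYC siCtrl; bars are 95% confidence intervals and dashed lines mark a 1.5-fold change in either direction. Adam19 and Mmp13 with siAHR-5 lie past the dashed line at 0.83 and 0.75, and no gene lies past it with siAHR-2.

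The wider protease network was followed in a list of genes that activate, inhibit, anchor or serve as substrates of these enzymes, or code for AP-1 and ETS transcription factors, of which 47 were measured. With MYC, 18 of the 47 passed in set A, 3 higher and 15 lower, where 26.8% of all genes passed (12.5% higher and 14.3% lower). In set B 22 passed, 3 higher and 19 lower, where 25.5% of all genes passed (10.8% and 14.7%). The median log2FC of the list was −0.32 and −0.48, that of all genes being 0.00 in both. Of 5 other membrane-bound or soluble inhibitors, 2 passed lower in each set, where 14.3% and 14.7% of all genes passed lower. A2m, a trap for proteases of every class, passed in both, at −3.21 (SE 0.0590, adjusted p = 2.61e-12) and −4.98 (SE 0.0947, adjusted p = 4.17e-07), and Reck, a membrane-anchored MMP inhibitor, had −0.58 and −0.90 (adjusted p = 6.35e-06), the latter alone passing. Of the testican genes, Spock1 had −2.12, which passed, and −0.08, Spock2 had 0.40 and 0.17, and Spock3 had −0.07 and 0.00. In the plasminogen system, whose product plasmin activates MMPs, the inhibitor Serpine2 passed lower in both sets, at −3.96 and −4.86, and the activator Plat and the receptor Plaur passed lower in set B alone, at −1.83 and −1.68.

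Of the 4 listed procollagen C-proteinases and enhancers, 1 passed in set A and 3 in set B, all lower, where 14.3% and 14.7% of all genes passed lower. The enhancer Pcolce passed lower in both sets, at −0.78 and −1.60, and the C-proteinases Bmp1 and Tll1 passed in set B alone, at −1.33 and −3.18, while Tll2 had −0.01 and 0.02. Of the 7 partners of ADAM10 and ADAM17, 2 passed in set A and 3 in set B, where 26.8% and 25.5% of all genes passed. Among the tetraspanins, which direct ADAM10, Tspan15 passed higher in both sets, at 2.34 and 2.09, Tspan5 lower in set A alone, at −1.05, and Tspan17 lower in set B alone, at −0.87. Rhbdf1, which carries ADAM17 to the surface, passed lower in set B alone, at −0.98. Of the 9 shed ligands and receptors, 4 passed in set A and 3 in set B, all lower, beside the same shares of all genes as above. The ligands Hbegf (−0.99 and −0.77) and Tgfa (−1.84 and −0.77) passed in both sets. Btc (−1.21) and the receptor Notch1 (−1.07, against 0.38 in set B) passed in set A alone, and Jag1 (−0.70) in set B alone. Of the ADAMTS substrates, the proteoglycan Vcan passed lower (−0.76 and −1.15) and Comp passed higher (1.24 and 0.97) in both. Of the 9 factors of the AP-1 and ETS families, 4 passed in each set, where 26.8% and 25.5% of all genes passed. Fos passed higher (1.76 and 0.68) and Ets1 lower (−1.10 and −0.87) in both sets. Fosl1 (−1.94) and Jund (−0.93) passed lower in set A alone, and Fosb (−0.69) and Ets2 (−0.79) in set B alone.

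With siAHR-2, 1 of the 47 partner genes passed, Pcolce at −0.71 (adjusted p = 0.000237), where 0.470% of all genes passed. With siAHR-5, 4 passed, where 2.32% of all genes passed. Reck was lower, at −0.78 (adjusted p = 0.000193), and Tspan15 (0.78), Tspan17 (0.66) and the AP-1 factor Junb (0.77) were higher. The difference between the siRNAs itself passed for 7 of the 47 genes, all higher with siAHR-5, where 2.18% of all genes passed (1.33% higher). They were Pcolce (0.71), Junb (0.74), Plaur (0.71), Plat (0.62), Rhbdf2 (0.69), Hbegf (0.64) and Fosl1 (0.72). It did not pass for Reck (−0.57), Tspan15 (0.28) or Tspan17 (0.49).

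**Figure D5:**
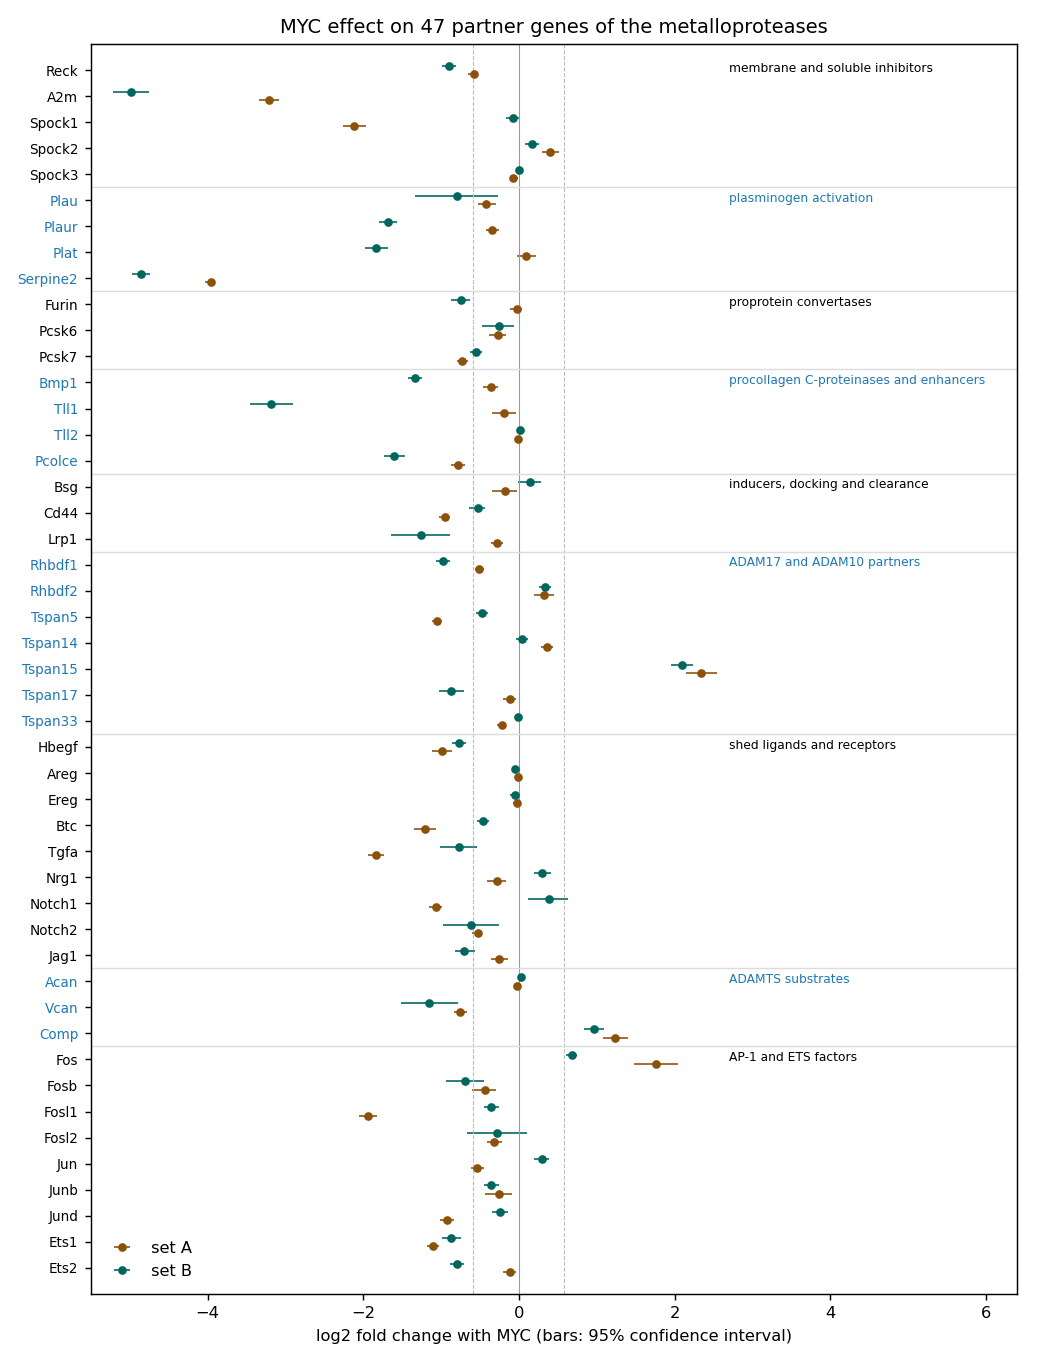
Log2 fold change with MYC of 47 partner genes of the metalloproteases, by group, in set A (brown) and set B (green); bars are 95% confidence intervals and dashed lines mark a 1.5-fold change in either direction. Serpine2 and A2m lie farthest to the left in set B and Tspan15 farthest to the right in both sets.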

How the data were processed

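Condition and replicate number came from the sample labels, and all 18 value columns were matched to samples by name. The authors aligned reads to rn6 with HISAT2 2.1.0, dropped genes with fewer than 10 reads in total and normalized with DESeq2; the read counter and annotation are not given in the sources used here. The values they deposited are on a log2 scale and hold no counts, so read depth and the precision it gives are unknown. Off the log scale their totals differ between libraries, so they are not CPM, and the exact transformation is not known; no 2 libraries were identical. The leading principal component, with 74.7% of the variance, separated set A from set B.

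For each comparison a moderated linear model of limma 3.58.1 (R 4.3.3), with the prior variance following the mean level, was fitted to the deposited values of the compared groups only, with Benjamini-Hochberg adjustment over all 13188 genes, without a filter on low values. The difference of the MYC effects was fitted over 12 libraries in 4 groups. The cutoffs are those of the study's results. The members, role groups, partner list and markers were chosen with earlier results of these data known; 1 gene of the partner list is not reported here. Full values are given for members past the cutoffs in both MYC comparisons, in opposite directions or with an siRNA, for the largest changes, and for the TIMPs, Mmp2, Mmp9, Mmp14, Adam10 and Adam17; a few others were named after their values were seen. The planned split of the ADAMs by zinc-binding motif was not made. All 42 symbols matched RefSeq (GRCr8), in which 82 symbols fit the rule; the others were not analysed here. Figures were drawn with matplotlib 3.10.9. Alternatives were another cutoff, no trend, quantile normalization, median centring, a filter, a pseudocount of 1, all libraries of a set in one fit, a replicate block and leaving out each library.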

Additional observations from a re-analysis of the deposited data

Results flagged for a closer look

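The effect of MYC differed between the 2 sets past the cutoffs for 17 of the 42 genes, tested as the log2FC of set B minus that of set A, where 16.5% of all genes did so. The transfection label and the scale of each set change together with the set, and their parts cannot be told apart.

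Among the MMPs the effect was more negative in set B for Mmp2 (−0.78), Mmp9 (−0.78), Mmp19 (−0.82) and Mmp24 (−0.75). After quantile normalization the difference no longer passed for Mmp2 (−0.53), Mmp9 (−0.46) and Mmp19 (−0.43). It was more positive for Mmp10 (2.34), Mmp12 (1.54), Mmp13 (0.76) and Mmp3 (0.65), which are neighbours on chromosome 8, and for Mmp15 (1.62). In the myc-/- + MYC siCtrl libraries of set B, Mmp10 and Mmp12 lay at or within 0.05 of the lowest value of each gene. Mmp3 read 6.68 to 6.77 in those libraries, near its lowest value of 6.66 in the set. Timp3 differed by 2.54, its fall in set B ending near its lowest value. Of the ADAMTS and ADAMTS-like genes, Adamts2 (−1.08), Adamts5 (−1.02), Adamts10 (−1.43), Adamtsl3 (−2.82), Adamtsl4 (−1.38) and Adamtsl5 (−1.60) had the more negative effect in set B. Adam17 differed by 0.64 and was the ADAM that passed, but did not after quantile normalization (0.56). After median centring, all genes split into 1148 higher and 1036 lower for this difference, against 896 and 1275 on the deposited scale.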

How the results depend on the processing

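Each MYC count kept its direction under the alternatives run. With an adjusted p below 0.05 and no fold cutoff, 34 genes passed in set A, 9 with siAHR-2, 16 with siAHR-5, 27 for the difference of the MYC effects and 19 for siAHR-5 minus siAHR-2. Leaving out each library in turn gave 20 to 21 genes in set A, 22 to 24 in set B, 0 with siAHR-2, 17 to 18 for the difference, 1 to 2 with siAHR-5 and 1 to 4 for siAHR-5 minus siAHR-2. The siAHR-5 count was 1 without siAHR-5 replicate 1 or siCtrl replicate 2 or 3, and that for the direct difference was 1 without siAHR-2 replicate 1 or 3 or siAHR-5 replicate 1. With siAHR-5, Mmp13 lost its call in 5 of the 6 fits and Adam19 in none, so a count of 2 was not always made up of these genes. With the replicate number as a block, 1 gene passed with siAHR-5 and 1 for siAHR-5 minus siAHR-2, Adam19 in both, and the MYC counts were 21 and 21. Same-numbered libraries did not deviate together in every pair in any comparison (correlations from −0.256 to 0.242), so the numbers are not taken as pairs. Under the block, Adamtsl3 in set B came just over the cutoff on the adjusted p. The log2FC of Timp3 with siAHR-5, 0.03, became −0.05 after quantile normalization and −0.03 after median centring; the cause was not tested. With the depth unknown, a gene at its lowest value is not shown to be absent.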
